A study of Rattus norvegicus with 9 samples.

Results

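Pro-B cells are the earliest committed cells of the B lineage, and in these libraries they were chosen by the unique molecular identifiers (UMIs, counts of single RNA molecules) of 3 genes. A cell was a member when it held at least 2 UMIs of Ebf1, at least 1 of Dntt and at least 1 of Igll1, after barcodes with fewer than 200 genes or more than 20% mitochondrial UMIs had been removed. The rule found 3044 cells among the 114232 cells kept, or 2.67%, with 215 to 708 cells in a library. These 3 genes selected the cells, so their values describe the members and were not tested. The median member held 55.0 to 91.0 UMIs of Ebf1, 3.0 to 5.0 of Dntt and 8.0 to 13.0 of Igll1, depending on the library.

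The cells came from the proximal tibia of Sprague-Dawley rats of 6 to 8 weeks with a 3-mm circular osteotomy and a 4-mm skin wound on the foot, which every group carried. TO rats had no further treatment. TOE rats also received radial extracorporeal shock waves over the bone cut, with sessions on day 2 and day 4 after surgery, and tissue was taken 4 or 24 h after a session. TO tissue was taken at the same times and, on day 2, once before any session (0 h). The groups were TO 2d 0h, TO 2d 4h, TO 4d 4h, TO 4d 24h, TOE 2d 4h, TOE 2d 24h, TOE 4d 4h and TOE 4d 24h, each with 1 library, and TO 2d 24h was not analysed here. A single pair of groups therefore has no replicate check. Shock waves (TOE against TO), day (4 against 2) and hour (4 h against 0 or 24 h) were tested on 4 libraries against 4. These p-values measure the spread between libraries that differ in the other factors too. Further fits left out a library or used the 3 TO and TOE pairs of the same day and hour. Stages of the B lineage were compared within each of the 8 libraries.

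The 8 libraries held 12451 to 17187 barcodes and 95954800 to 144146202 UMIs each. The median cell had 4572 to 5790.0 UMIs and the median pro-B cell 8054 to 11883.5 UMIs. A doublet score above 0.25 was reached by 4.65% to 9.73% of pro-B cells and by 2.27% to 4.24% of all cells, and these cells were kept. Any 2 libraries shared 40 to 110 barcodes. The library TOE 4d 24h stood apart: haemoglobin transcripts in its other cells came to 150.5 CPM (UMIs of a gene per 1000000 UMIs of the cells named) against 7477 to 18750.0 CPM in the other 7 libraries, and S100a8 with S100a9 came to 69180.0 CPM against 19280.0 to 31260.0 CPM. Counts that changed most without this library are given both ways.

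B cell development in the marrow is set by the order in which antigen receptor genes are rearranged. Pro-B cells join the D and J and then the V segments of the immunoglobulin heavy chain with the Rag1 and Rag2 recombinase, and terminal transferase (Dntt) adds bases at the joints. Igll1 (lambda 5) and Vpreb1 form the surrogate light chain, which pairs with the first heavy chain to make the pre-B cell receptor. Large pre-B cells with that receptor divide, leave the cycle as small pre-B cells that rearrange the light chain, and then become immature and mature B cells with a complete receptor. Ebf1 and E proteins (Tcf3) drive the early genes, and the cytokine IL-7 acts through Il7r, Jak1, Jak3 and STAT5.

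The windows of 250 bases before the start of Igll1, Dntt and both Vpreb1 genes are shown, since Dntt and Igll1 belong to the rule, the Vpreb1 genes encode the partner of Igll1, and Ebf1 and E proteins are known to bind sites near such genes. The sequences are from RefSeq (GRCr8), 5′ to 3′ on the strand of the gene, and capitals mark CCCNNGGG (a core of the Ebf1 site) and CANNTG (the E-box), searched on both strands. Igll1 lies at chr11:97642937-97643186 (plus strand), Vpreb1a at chr11:97630924-97631173 (plus), Vpreb1b at chr11:96514405-96514654 (minus) and Dntt at chr1:249805552-249805801 (plus).
Igll1: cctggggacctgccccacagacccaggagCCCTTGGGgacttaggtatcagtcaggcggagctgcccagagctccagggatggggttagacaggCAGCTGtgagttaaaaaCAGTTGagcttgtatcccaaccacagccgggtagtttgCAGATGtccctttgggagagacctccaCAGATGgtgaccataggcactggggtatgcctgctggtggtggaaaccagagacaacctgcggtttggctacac
Vpreb1a: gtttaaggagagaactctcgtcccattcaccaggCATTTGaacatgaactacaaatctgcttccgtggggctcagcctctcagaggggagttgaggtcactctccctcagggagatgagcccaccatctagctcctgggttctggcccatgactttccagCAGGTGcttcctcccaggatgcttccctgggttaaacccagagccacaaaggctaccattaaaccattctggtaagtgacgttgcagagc
Vpreb1b: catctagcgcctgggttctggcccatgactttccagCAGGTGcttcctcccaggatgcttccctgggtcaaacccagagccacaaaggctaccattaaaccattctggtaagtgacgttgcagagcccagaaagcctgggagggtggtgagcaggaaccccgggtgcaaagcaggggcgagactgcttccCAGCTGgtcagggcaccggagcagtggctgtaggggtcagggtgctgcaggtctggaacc
Dntt: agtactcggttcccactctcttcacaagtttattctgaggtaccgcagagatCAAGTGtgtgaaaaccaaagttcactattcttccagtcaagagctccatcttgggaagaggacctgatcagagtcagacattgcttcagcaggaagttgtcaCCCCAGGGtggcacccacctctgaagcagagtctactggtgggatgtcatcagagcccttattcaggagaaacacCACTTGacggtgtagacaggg
The Igll1 window held 1 CCCNNGGG, starting at -221, and 4 CANNTG. The Dntt window held 1 CCCNNGGG, starting at -96, and 2 CANNTG, while each Vpreb1 window held 2 CANNTG and no CCCNNGGG. The motifs shared 0 bases. Among all 33469 promoters in the table, 10.8% held CCCNNGGG and 65.5% held CANNTG. Of 11 genes of the surrogate light chain and pre-B receptor list with a window, 1 held the first motif and 9 the second. Of 14 further markers and genes named as higher in pro-B cells, outside that list and so without Igll1 and the Vpreb1 genes, 3 held the first and 13 the second. The windows of Vpreb1a and Vpreb1b share a run of 59 identical bases. Their transcripts were not compared. If these are as alike, the authors' counting may have divided or dropped reads between them, so their values are uncertain.

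The label was checked with 3 markers that the rule did not use. After each cell was thinned to 5000 UMIs (2668 of the members, with 376 shallower members left out), Lef1 had a UMI in 89.7% (88.5 to 90.9%) of pro-B cells, Il7r in 65.4% (63.6 to 67.2%) and Arpp21 in 67.1% (65.3 to 68.9%), with exact intervals that cover counting error only. The unthinned shares were 94.5%, 80.3% and 80.7%. Neutrophils, taken as cells with at least 20 UMIs each of S100a8 and S100a9 and none of Cd79a, had a UMI of these genes in 5.37% (4.85 to 5.93%), 1.79% (1.49 to 2.13%) and 1.97% (1.65 to 2.32%) of thinned cells. Thinning left out 1237 of the large pre-B, 11602 of the small pre-B and 4198 of the mature B cells, so that it kept the deeper cells of the last 2 stages. These stages held the markers in fewer thinned cells: Lef1 in 45.1% of large pre-B, 32.5% of small pre-B and 30.7% of mature B cells, Il7r in 25.9%, 18.0% and 9.27%, and Arpp21 in 12.3%, 38.6% and 7.12%. Without thinning Lef1 had a UMI in 62.1%, 28.8% and 22.7% of these cells, Il7r in 44.7%, 11.6% and 7.15%, and Arpp21 in 26.6%, 42.1% and 6.45%. The T cell gene Cd3e and the late B gene Ms4a1 had a UMI in 0.6% and 2.96% of pro-B cells. Mpo, a granule gene of myeloid precursors, had a UMI in 11.7% (10.5 to 13%) of pro-B cells, near the 13.3% (12.5 to 14.1%) of the neutrophil gate. The members carried the markers of their name in every library, with Lef1 in 85.8% to 93.9% of thinned cells.

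Lef1 and Il7r were set side by side at the edges of the rule, as a description. The 818 members with exactly 1 Dntt UMI had 630.0 CPM of Lef1, and the 14395 cells with no Dntt UMI that met the other 2 conditions had 336 CPM. The 365 members with 1 Igll1 UMI had 184 CPM of Lef1 against 87.4 CPM in the 1431 cells just outside. Il7r was at 113 against 79.3 CPM at the Dntt edge, and at 51 against 53.3 CPM at the Igll1 edge, where members and other cells were thus close. Only 21 members had exactly 2 Ebf1 UMIs, and they had 25.4 CPM of Lef1 against 42.5 CPM in the 22 cells with 1 Ebf1 UMI. Most members lay far above the Ebf1 threshold, while Dntt and Igll1 set who was counted.

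**Figure D1:**
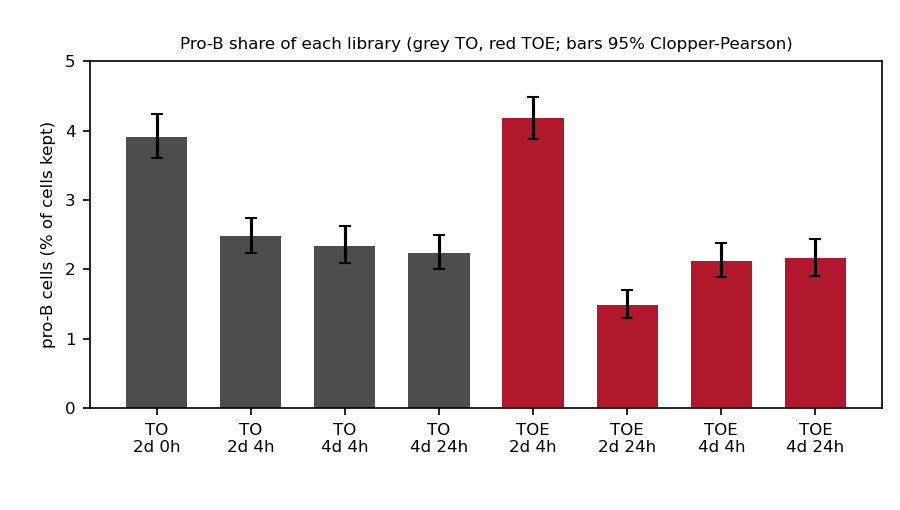
Pro-B cells as a percentage of all cells kept in each of the 8 libraries, with exact 95% intervals for counting error. TOE 2d 4h (4.18%) and TO 2d 0h (3.91%) lie highest, TOE 2d 24h (1.49%) lowest, and the 4 libraries of day 4 lie between 2.12% and 2.34%.

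Pro-B cells made up 1.49% to 4.18% of the cells of a library. In TO rats the share was 3.91% at 2d 0h (567 cells), 2.48% at 2d 4h (380 cells), 2.34% at 4d 4h (298 cells) and 2.24% at 4d 24h (316 cells). The TOE libraries had 4.18% at 2d 4h (708 cells), 1.49% at 2d 24h (215 cells), 2.12% at 4d 4h (294 cells) and 2.16% at 4d 24h (266 cells). The libraries of day 2 held both the highest and the lowest shares, and those of day 4 lay close together.

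At 2d 4h the TOE library had 1.68 times the pro-B share of the TO library (exact interval 1.49 to 1.91 for counting error), a value without replicates. On day 4 the ratio was 0.907 (0.769 to 1.07) after 4 h. It was 0.963 (0.815 to 1.14) after 24 h, and both intervals of day 4 held 1. The ratio at 4d 4h was 0.800 (0.659 to 0.970) under a stricter rule with 2 UMIs each of Dntt and Igll1 and 0.778 (0.626 to 0.965) with cells thinned to 3000 UMIs, and these intervals did not hold 1. Taken over B lineage cells with at least 2 Cd79a UMIs in place of all cells, the ratio at 2d 4h was 1.29. Over all libraries the geometric mean share was 2.31% in TOE and 2.67% in TO, a ratio of 0.865 (exact two-sided permutation test over 70 arrangements, n = 4 against 4, p = 0.543, adjusted over the 3 factors 0.543). The arms are not matched here, since TO 2d 0h and TOE 2d 24h have no partner of the same hour. The ratio was 0.982 without TO 2d 0h and 1.00 without TOE 2d 24h. Day 4 had 0.794 times the share of day 2 (exact permutation p = 0.314), and 4 h had 1.16 times that of 0 or 24 h (exact permutation p = 0.514). None of the 3 differences passed the test. With 70 arrangements and an adjustment over 3 factors, a single factor could not pass by itself, however large its difference. The test can therefore not decide on a single factor. A share of a suspension depends on all other cells in it, and fewer pro-B cells cannot be told apart from more cells of other kinds.

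The genes of pro-B cells were set against 3 other stages of the B lineage from the same libraries, to place the cells along development. Large pre-B cells were 15063 cells with at least 2 UMIs of Cd79a, at least 1 each of Mki67 and Top2a, and none of Dntt or Ms4a1. Small pre-B cells were 15374 cells with at least 2 UMIs of Cd79a and 1 of Rag1, and none of Dntt, Igll1, Mki67 or Top2a. Immature and mature B cells were 6291 cells with at least 2 UMIs each of Cd79a and Ms4a1, and none of Dntt, Igll1 or Rag1. UMIs were summed per library and stage and fitted with edgeR's quasi-likelihood test with the library as a block, and a gene was called at an adjusted p under 0.05 and a log2 fold change of at least 1. The genes of either gate were left out, and genes that follow a gate gene from cell to cell differ by construction. This applies to genes that rise or fall with Mki67 and Top2a, which the large pre-B gate requires and the small pre-B gate excludes. Median depths were 10867 to 17690.0 UMIs in large pre-B, 3661 to 4416.5 in small pre-B and 3725.5 to 4778 in mature B cells.

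Of 17977 genes tested against large pre-B cells, 9.21% were called (923 higher in pro-B, 5.13%, and 733 lower, 4.08%). Against small pre-B cells 27.7% of 15789 genes were called (2556 higher, 16.2%, and 1811 lower, 11.5%), and against immature and mature B cells 22.6% of 14357 (1792 higher, 12.5%, and 1447 lower, 10.1%). The median log2 fold change of all genes was -0.07, -0.01 and 0.03. The counts of gene lists below stand beside these shares and medians, and no list was tested against them. Without TOE 4d 24h the counts were 1620, 4305 and 3142. Against large pre-B cells the count was 2981 under a stricter rule with 2 UMIs each of Dntt and Igll1, and 2508 in cells of 5000 to 20000 UMIs. In these settings it was 3954 and 3267 against small pre-B cells, and 3184 and 2616 against immature and mature B cells. In the main fit large pre-B cells thus differed from pro-B cells in the smallest share of genes, by a rule whose power varies with depth. The counts lay closer together under the stricter rule and in cells of 5000 to 20000 UMIs, where that against large pre-B cells was still the lowest.

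**Figure D2:**
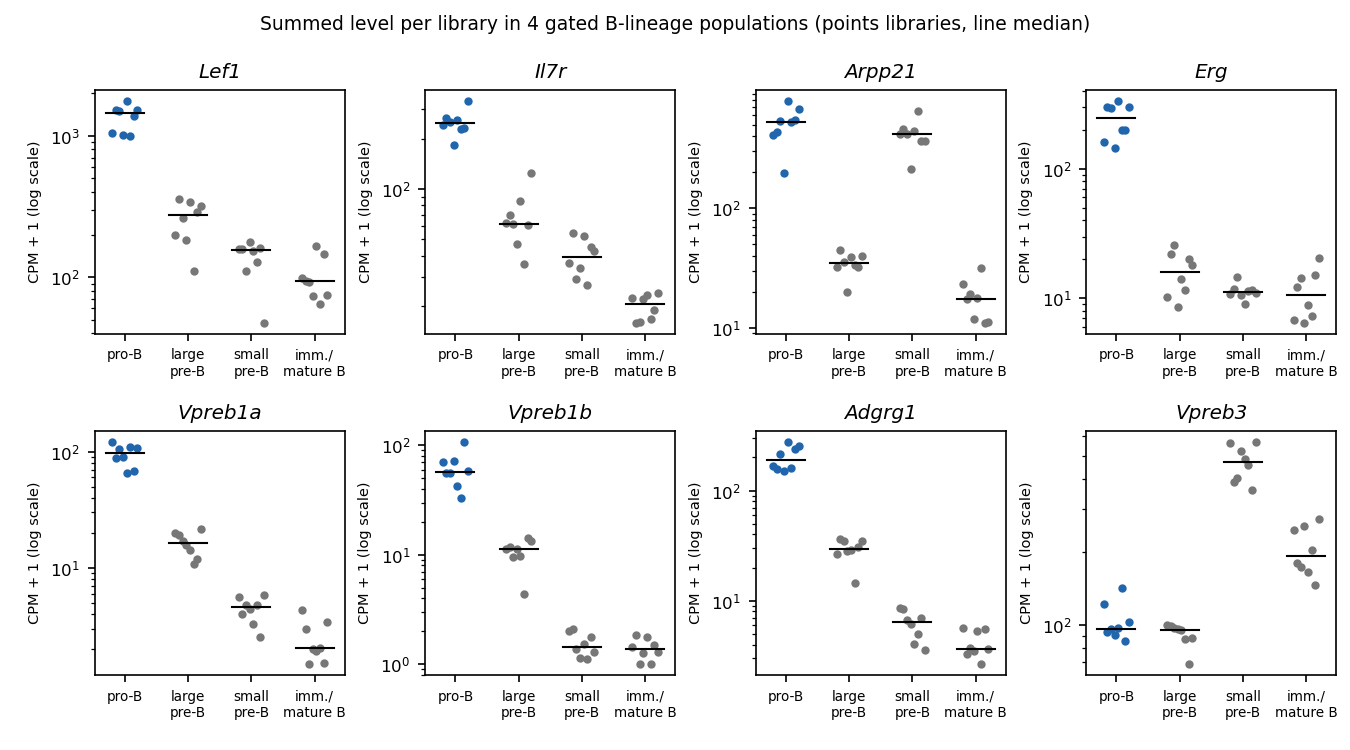
CPM in each of the 8 libraries (points) for 8 genes in pro-B, large pre-B, small pre-B and immature and mature B cells, as CPM plus 1 on a log axis, with lines at the medians. Lef1, Il7r and Erg were higher in every pro-B point than in any other stage, Arpp21 overlapped between pro-B and small pre-B cells, and Vpreb3 was highest in small pre-B cells.

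The surrogate light chain genes Vpreb1a and Vpreb1b were higher in pro-B cells than in every later stage. Vpreb1a was at 63.9 to 119 (median 97.2) CPM in the pro-B cells of the 8 libraries, with medians of 15.4 CPM in large pre-B, 3.6 in small pre-B and 1.02 in mature B cells. Its log2 fold change was 2.56 ± 0.10 (adjusted p = 1.08e-08) against large pre-B, 4.71 ± 0.09 (adjusted p = 8.4e-13) against small pre-B and 5.96 ± 0.17 (adjusted p = 2.31e-11) against mature B cells. Vpreb1b, at 31.9 to 106 (median 56.1) CPM in pro-B cells, was higher by 2.60 ± 0.10, 6.68 ± 0.20 and 7.15 ± 0.21. Igll1, their partner, belongs to the rule, and the small pre-B and mature B gates exclude it. The gates can thus set the differences of both genes from these stages. The large pre-B gate does not use Igll1, which the rule requires, but it excludes Dntt and requires Mki67 and Top2a. Within pro-B cells both genes were lower in cells with at least 2 UMIs of Mki67 and Top2a together than in cells with 0. Vpreb1a was at 67 against 158 CPM and Vpreb1b at 43.25 against 95.55 CPM. The rule and this gate can thus set part of the differences from large pre-B cells too. No pro-B library overlapped a library of another stage for either gene.

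Vpreb3, which acts inside the cell in the assembly of the receptor, ran the other way. It was at 84.6 to 140.5 (median 95.2) CPM in pro-B and at 361 to 566 (median 469) CPM in small pre-B cells, a log2 fold change of -2.27 ± 0.09 (adjusted p = 8.01e-11), and the libraries did not overlap. Genes of receptor signalling were also lower than in small pre-B cells: the kinase Syk by -1.91 ± 0.08, the kinase Lyn by -1.80 ± 0.09, the receptor subunit Cd79b by -1.59 ± 0.07 and Cd72, a receptor of mature B cells, by -2.50 ± 0.10. Of 14 tested genes of the list, 4 were called higher and 0 lower against large pre-B cells (median 0.14), 3 higher and 8 lower against small pre-B (median -1.06), and 2 higher and 7 lower against mature B cells (median -0.91). The adhesion receptor Cd22 was among the higher ones against large pre-B (1.86 ± 0.09) and small pre-B cells (2.05 ± 0.10). The heavy chain gene Ighm was not analysed here.

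Genes of V(D)J recombination were called in both directions. Rag1, which cuts at the segments, was higher than in large pre-B cells by 2.27 ± 0.15 (adjusted p = 3.59e-07), at 98.7 to 178 (median 154) against 12.4 to 46.6 (median 35.6) CPM, and its comparison with the other stages was not made, since their gates use it. The large pre-B gate requires Mki67 and Top2a. Pro-B cells with at least 2 UMIs of these genes together had a median of 57.2 CPM of Rag1, and those with 0 had 320.5 CPM. This gate can thus set part of the difference of Rag1. Rag2, the partner of Rag1, was lower than in small pre-B cells by -1.08 ± 0.09 and higher than in mature B cells by 2.77 ± 0.18. The small pre-B gate requires a UMI of Rag1 and the mature B gate excludes it, so the gates can set these differences of Rag2. Lig4, which seals the joints, was at 73.4 to 172 (median 128) CPM in pro-B and 394 to 1167 (median 550.3) CPM in small pre-B cells (-2.36 ± 0.11 (adjusted p = 2.98e-10)), and the DNA polymerase Polm was lower by -2.75 ± 0.09. Hmgb1 and Hmgb2, chromatin proteins that assist the recombinase and are abundant in dividing cells, were higher than in small pre-B cells by 2.21 ± 0.09 and 2.79 ± 0.06. So were the histone variant H2ax, which marks DNA breaks, by 2.16 ± 0.16 and the DNA polymerase Poll, which fills ends at joints, by 2.06 ± 0.18. The small pre-B gate excludes cells with a UMI of Mki67 or Top2a, and within pro-B cells Hmgb1 (1535 against 456 CPM), Hmgb2 (1782 against 229.6 CPM) and H2ax (213 against 22.9 CPM) were higher in cells with at least 2 UMIs of these genes together than in cells with 0, in 8 of 8 libraries. The gate can thus set these 3 differences from small pre-B cells, which are still included in the count of calls that follows. In all, 1 of 16 tested genes was called higher and 0 lower against large pre-B cells, 4 of 15 higher (these 3 and Poll) and 3 lower against small pre-B, and 4 of 15 higher and 1 lower against mature B cells, with medians of 0.04, 0.29 and 0.43. Of all genes tested, 5.13%, 16.2% and 12.5% were higher and 4.08%, 11.5% and 10.1% lower. Whether the list differs from all genes was not tested. The end-joining genes Xrcc4, Xrcc5, Xrcc6, Prkdc, Dclre1c and Nhej1 were not called against any of the 3 stages.

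V segments of the antigen receptors were counted by a list that was drawn up after the data were seen. Of the V segments named in RefSeq, 88 could be tested against small pre-B cells: 75 were lower in pro-B and 9 higher, with a median log2 fold change of -3.78. Against mature B cells 48 of 58 were lower and 6 higher (median -2.78), and against large pre-B cells 34 of 67 were lower and 13 higher (median -1.08). Of all genes tested, 11.5%, 10.1% and 4.08% were lower in these comparisons, and 16.2%, 12.5% and 5.13% higher. In the pro-B libraries by themselves 19 V segments passed the filter on low counts. Many segments thus entered these tests only through the other stage, which fixed their direction in advance, and the counts are a description only. Immunoglobulin segments are near-copies of each other, so single segments are not named.

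The early lymphoid transcription factors that were called were higher in pro-B cells, and most of the B lineage factors that were called were lower. Lef1, a factor that responds to Wnt signals and is known from pro-B cells, was at 997 to 1757 (median 1436) CPM in pro-B, 109.6 to 358 (median 275) in large pre-B, 46.6 to 175 (median 154) in small pre-B and 63.9 to 164 (median 92.4) in mature B cells. The log2 fold changes were 2.39 ± 0.09 (adjusted p = 5.98e-09), 3.26 ± 0.23 (adjusted p = 2.28e-08) and 3.73 ± 0.12 (adjusted p = 5.65e-11). Erg, an ETS factor of stem cells and early lymphoid cells, was at 144 to 331 (median 245) CPM and was higher by 3.96 ± 0.12, 4.40 ± 0.15 and 4.53 ± 0.15. For both genes the lowest pro-B library lay above the highest library of every other stage. Erg is not particular to lymphoid cells here, with a UMI in 30.4% (29.4 to 31.6%) of thinned neutrophils against 59.1% (57.2 to 61%) of pro-B cells.

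The T cell factor Tcf7 (1.70 ± 0.16, 2.00 ± 0.15 and 2.71 ± 0.16) and the chromatin organiser Satb1 (2.31 ± 0.12, 1.55 ± 0.10 and 1.05 ± 0.09) were higher than in large pre-B, small pre-B and mature B cells as well. Pro-B cells with at least 2 UMIs of Mki67 and Top2a together had less Tcf7 (21.1 against 53.3 CPM) than those with 0. The same held for Satb1 (303 against 955 CPM), Lef1 and Erg, in 8 of 8 libraries. The large pre-B gate requires Mki67 and Top2a. It can thus set part of the differences of Tcf7, Satb1, Lef1 and Erg from that stage. The stem cell factors Meis1 and Hoxa9 were higher than in small pre-B cells by 2.64 ± 0.46 and 2.96 ± 0.40 at low levels, with medians of 8.92 and 3.09 CPM in pro-B, and were not called against large pre-B cells (0.60 ± 0.34 (adjusted p = 0.192) and 0.71 ± 0.24 (adjusted p = 0.0317)). The early lymphoid list had 4 of 16 genes higher against large pre-B, 8 of 14 against small pre-B and 9 of 14 against mature B cells, with 0 lower in each and medians of 0.28, 1.40 and 1.21.

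Markers of other cells moved between the stages as well. Against small pre-B cells 3 of 11 neutrophil markers were higher and 3 lower, with the granule genes Prtn3 (4.27 ± 0.34) and Elane (3.83 ± 0.37) among the higher ones, and 4 of 8 T and NK markers were higher and 1 lower, among the higher ones Nkg7 (3.08 ± 0.30). The summed neutrophil markers were 3158 to 13530.0 CPM in pro-B and 5524 to 15720.0 CPM in small pre-B cells, the T and NK markers 173.5 to 343.9 and 37.2 to 90.3 CPM, and none of either list was at 0 in pro-B cells. In each library 5 pro-B cells held 65.5% to 96.3% of the UMIs of Mpo, Elane, Prtn3 and Ctsg together. The part of these cells in the differences of progenitor genes was not tested.

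Among B lineage factors, Ikzf3 (Aiolos), which limits growth after the pre-B receptor, was lower by -1.30 ± 0.16, -2.92 ± 0.09 and -3.70 ± 0.11 against large pre-B, small pre-B and mature B cells. Spib was lower by -1.64 ± 0.15, -2.72 ± 0.11 and -2.67 ± 0.12, Irf4 by -1.06 ± 0.11, -1.40 ± 0.10 and -1.27 ± 0.08, and Pou2f2 by -1.17 ± 0.11, -1.53 ± 0.08 and -2.70 ± 0.09. Pax5, which holds cells to the B lineage, was at 246 to 621 (median 359) CPM in pro-B cells and differed from large pre-B cells by -0.15 ± 0.11 (adjusted p = 0.309), but was lower than in small pre-B cells by -1.17 ± 0.08 (adjusted p = 1.8e-08). Bcl11a was higher than in large pre-B (1.32 ± 0.10) and small pre-B cells (1.52 ± 0.08). The list of 22 tested factors had 2 higher and 4 lower against large pre-B, 1 higher and 9 lower against small pre-B, and 1 higher and 10 lower against mature B cells (medians -0.09, -0.68 and -0.92).

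**Figure D3:**
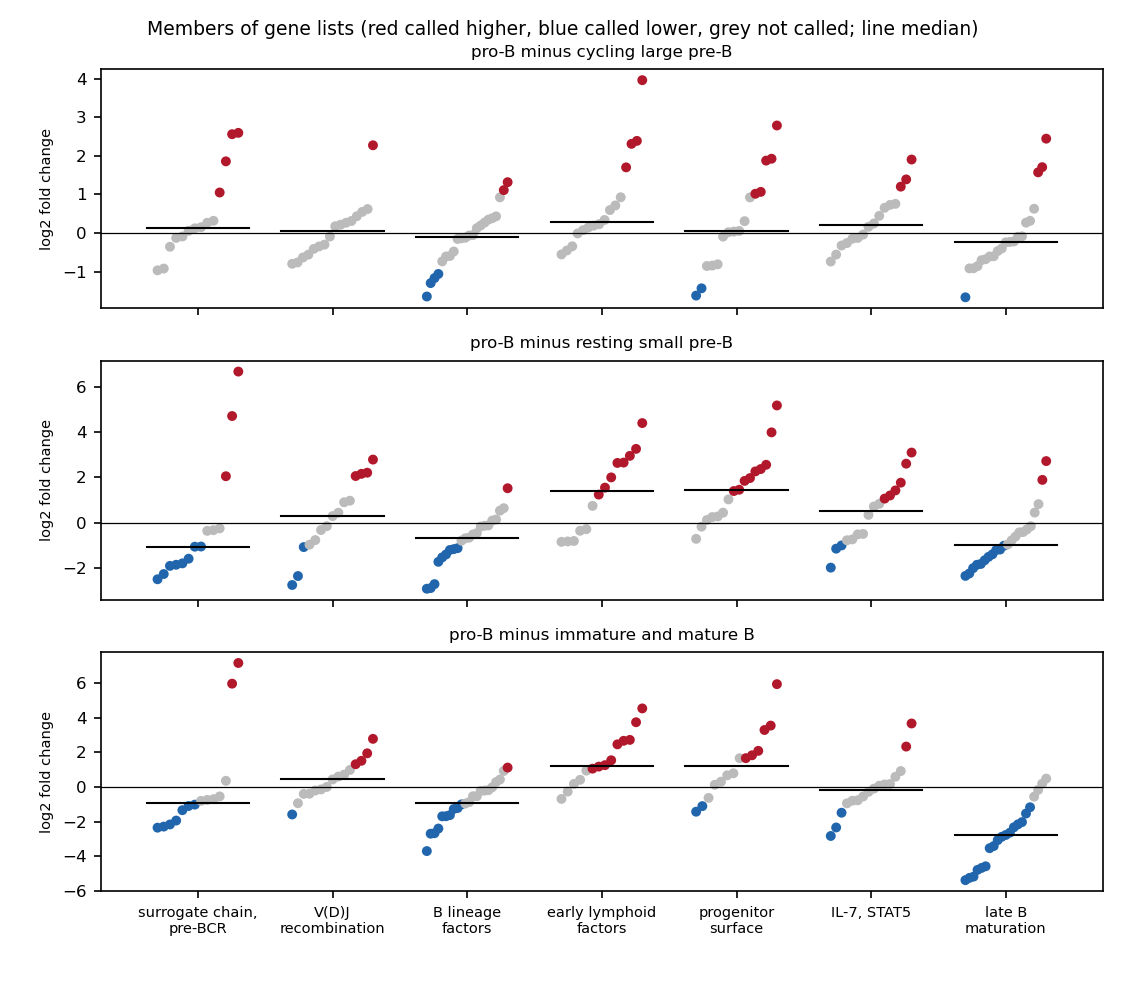
Log2 fold change of pro-B cells against large pre-B, small pre-B and mature B cells for each tested gene of 7 lists (points, red called higher, blue called lower, grey not called), with lines at the medians. Early lymphoid factors and progenitor surface genes lie mostly above 0 against small pre-B and mature B cells (medians 1.40, 1.21, 1.43 and 1.22), and 19 of 21 late B genes lie below 0 against mature B cells (median -2.77).

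Several surface genes of progenitors were called higher in pro-B cells. Adgrg1 (Gpr56), an adhesion receptor of stem cells, was at 148 to 273 (median 189) CPM in pro-B cells, with medians of 28.7, 5.4 and 2.69 CPM in large pre-B, small pre-B and mature B cells (2.79 ± 0.12, 5.18 ± 0.22 and 5.93 ± 0.13). Pro-B cells with at least 2 UMIs of Mki67 and Top2a together had less Adgrg1 than those with 0 (148 against 309 CPM). The large pre-B gate requires both genes and can thus set part of the difference of Adgrg1 from that stage. The stem cell factor receptor Kit was higher by 1.07 ± 0.22, 3.99 ± 0.28 and 3.54 ± 0.33 and the cytokine receptor Flt3 by 1.02 ± 0.17, 1.97 ± 0.21 and 1.82 ± 0.24. Both were rare, with a UMI of Kit in 4.76% (3.98 to 5.64%) and of Flt3 in 5.92% (5.06 to 6.89%) of thinned pro-B cells, against 0.597% (0.429 to 0.809%) and 1.12% (0.886 to 1.4%) of neutrophils. The call of Flt3 against large pre-B cells was lost without TOE 2d 24h, TOE 2d 4h, TOE 4d 4h or TOE 4d 24h and under the stricter rule. Of the list, 5 of 16 genes were higher and 2 lower against large pre-B (median 0.05), 9 of 16 higher and 0 lower against small pre-B (median 1.43), and 6 of 14 higher and 2 lower against mature B cells (median 1.22).

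The IL-7 receptor chain Il7r was at 181 to 334 (median 246) CPM in pro-B, 34.5 to 123 (median 61.1) in large pre-B, 25.9 to 53.5 (median 38.4) in small pre-B and 14.9 to 22.9 (median 19.5) in mature B cells, with log2 fold changes of 1.91 ± 0.10 (adjusted p = 7.88e-08), 2.61 ± 0.12 (adjusted p = 2.59e-10) and 3.66 ± 0.11 (adjusted p = 2.31e-11). No library of another stage reached the lowest pro-B library. Pro-B cells with at least 2 UMIs of Mki67 and Top2a together had less Il7r than those with 0 (175 against 409.7 CPM). The large pre-B gate requires both genes and can thus set part of the difference of Il7r from that stage. Cish and Socs2, feedback genes that STAT5 is known to induce, were also higher than in large pre-B (1.39 ± 0.22 and 1.20 ± 0.07) and small pre-B cells (3.10 ± 0.24 and 1.43 ± 0.09). Socs1 and Pim1 of the IL-7 list ran the other way against small pre-B cells and were called lower. In the 8 fits that left out a library their log2 fold changes were -2.049 to -1.908 and -1.235 to -1.097. Socs2 was not called against mature B cells (0.14 ± 0.18 (adjusted p = 0.508)). The kinases and STAT genes themselves (Jak1, Jak3, Stat5a and Stat5b) and the shared receptor chain Il2rg were called against none of the stages. The survival gene Bcl2 was higher than in small pre-B cells by 1.20 ± 0.17, a call lost under the stricter rule and in cells of 5000 to 20000 UMIs, and lower than in mature B cells by -2.34 ± 0.16. Of 16 genes, 3 were higher and 0 lower against large pre-B, 6 higher and 3 lower against small pre-B, and 2 higher and 3 lower against mature B cells (medians 0.20, 0.53 and -0.19).

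Arpp21, an RNA-binding protein gene known as a marker of precursors, set pro-B and small pre-B cells together. It was at 197 to 786 (median 530.0) CPM in pro-B and 213 to 648 (median 416) in small pre-B cells, which overlapped (0.19 ± 0.14 (adjusted p = 0.229)). In large pre-B and mature B cells the medians were 33.5 and 16.6 CPM (3.82 ± 0.12 and 4.85 ± 0.22). Pro-B cells with at least 2 UMIs of Mki67 and Top2a together had less Arpp21 than those with 0 (206 against 1193 CPM). The large pre-B gate requires both genes and can thus set part of the difference of Arpp21 from that stage. Of the 3 markers outside the rule, Arpp21 alone did not separate pro-B cells from all 3 stages.

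Most genes of the late B cell were lower in pro-B than in mature B cells. Antigen presentation genes were among those furthest from mature B cells: the class II chain RT1-Bb was at 0 to 3.04 (median 1.19) CPM in pro-B and 21.3 to 82.9 (median 62.4) in mature B cells (-5.38 ± 0.22 (adjusted p = 3.23e-10)), the invariant chain Cd74 was lower by -5.17 ± 0.17, and their activator Ciita by -4.67 ± 0.22. The IgM receptor Fcmr was lower by -5.24 ± 0.13 and the IgA heavy chain Igha by -4.90 ± 0.55. Of 21 tested genes of the list, 17 were lower and 0 higher against mature B cells (median -2.77), and against small pre-B cells 11 of 22 were lower and 2 higher (median -0.99). Against large pre-B cells 3 of 21 were higher and 1 lower (median -0.24). The higher ones included the cytokine gene Ltb (2.45 ± 0.18) and the complement receptor Cr2 (1.71 ± 0.12). Both were also higher than in small pre-B cells (1.89 ± 0.13 and 2.72 ± 0.09).

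Of the interferon-stimulated genes 10 of 19 were lower and 1 higher against small pre-B cells, and 9 lower and 0 higher against mature B cells. Mx2 was lower by -1.95 ± 0.35 and -3.68 ± 0.30, and Ifih1, a sensor of viral RNA, by -1.68 ± 0.09 and -1.59 ± 0.08. Against large pre-B cells 2 of 19 were higher and 0 lower. In the list of adhesion and migration genes, the chemokine receptor Cxcr4, which holds precursors in the marrow, was lower than in small pre-B (-1.67 ± 0.10) and mature B cells (-1.52 ± 0.11), and the chemokine scavenger Ackr3 was lower against all 3 (-3.38 ± 0.56, -2.82 ± 0.58 and -4.66 ± 0.48), at a median of 0 CPM in pro-B cells. Of 14 tested genes of this list, 1 was higher and 2 lower against large pre-B cells. Against small pre-B cells 0 were higher and 4 lower, and against mature B cells 1 was higher and 6 lower.

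Outside the lists, the genes furthest above other stages included 3 long non-coding RNAs. LOC103693221 was at 2.81 to 160.0 (median 39.6) CPM in pro-B cells and higher than in large pre-B, small pre-B and mature B cells by 8.07 ± 0.16, 8.48 ± 0.38 and 7.97 ± 0.26. In the RefSeq order of genes (GRCr8) it lies between Bcl11a and Fancl. LOC102550135, at 14.4 to 97.8 (median 57.9) CPM, was higher by 7.08 ± 0.19, 8.36 ± 0.30 and 7.30 ± 0.25. It overlaps the potassium channel gene Kcnj15 (5.89 ± 0.19, 6.76 ± 0.23 and 6.65 ± 0.24) and neighbours Erg, and the reads of overlapping genes may have been divided between them. LOC103691754, at 72.3 to 240.1 (median 155) CPM, was higher by 4.65 ± 0.12, 5.76 ± 0.13 and 5.94 ± 0.19. It lies between Notch1, higher than in small pre-B cells by 1.46 ± 0.10, and Egfl7, higher by 4.86 ± 0.31.

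Other genes at the top were the phosphodiesterase Pde2a (3.47 ± 0.19), the Notch co-activator Maml3 (3.17 ± 0.09) and the homeobox gene Pknox2 (3.05 ± 0.17) against large pre-B cells. Dnajc6 (5.29 ± 0.13), Emid1 (5.15 ± 0.18) and Ctla2a (4.70 ± 0.15) were among the 10 furthest above small pre-B cells. Among genes of at least 50 CPM that were lower in 8 of 8 libraries, those furthest below large pre-B cells included Car1 (-1.95 ± 0.33), Slc25a21 (-1.79 ± 0.25), Fcrla (-1.73 ± 0.13) and Spib. Car1 is a gene of erythroid precursors, and 8 of 11 erythroid markers were lower than in large pre-B cells (median -1.14), whose gate sets no limit on erythroid genes. The summed erythroid markers ranged from 455.5 to 3915 CPM in pro-B and from 538.6 to 7745 CPM in large pre-B cells. Of 11 mesenchymal and endothelial markers 5 were lower and 0 higher (median -1.50), among them the collagen genes Col1a1 (-1.85 ± 0.55) and Col1a2 (-2.02 ± 0.62), whose calls were lost without TO 4d 4h or TOE 4d 4h and, for Col1a2, TOE 2d 24h (adjusted p up to 0.0527 and 0.0571), with a sum of 162.8 to 2060.0 CPM in pro-B and 294 to 13960.0 CPM in large pre-B cells. The part of either marker group in the other differences was not tested.

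The cell cycle was compared as values against large and small pre-B cells, since their gates use Mki67 and Top2a. The median log2 fold change of 31 S phase genes was -0.60 against large pre-B and 2.95 against small pre-B cells, and that of 34 G2 and M phase genes was -0.67 and 3.49. Against mature B cells, whose gate uses no such gene, 24 of 31 S phase genes and 31 of 36 G2 and M phase genes were higher, and none were lower. After thinning, Mki67 had a UMI in 46.9% (44.9 to 48.8%) of pro-B, 24% (22.2 to 25.9%) of mature B cells and 32% (30.9 to 33.1%) of cells in the neutrophil gate.

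**Figure D4:**
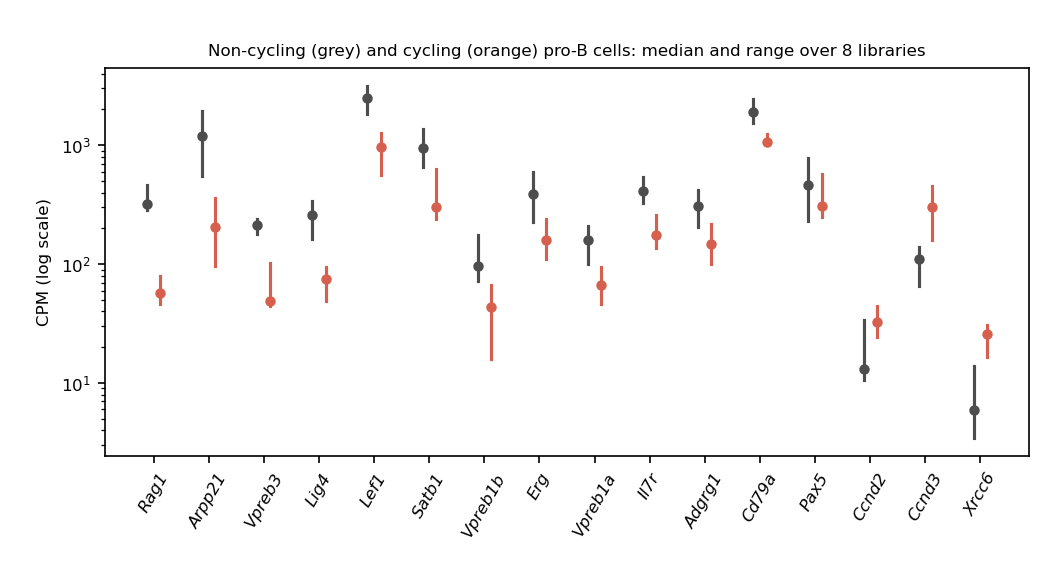
Median (point) and range (line) of CPM over 8 libraries, on a log axis, of 16 genes in pro-B cells with at least 2 UMIs of Mki67 and Top2a together (orange) and in pro-B cells with 0 (grey). Rag1 (57.2 against 320.5 CPM) and Arpp21 (206 against 1193 CPM) lie lower in cycling cells, and Ccnd3 (304 against 111 CPM) and Xrcc6 (26.0 against 5.99 CPM) lie higher.

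Pro-B cells were also described by their UMIs of Mki67 and Top2a. Members with at least 2 UMIs of Mki67 and Top2a together made up 33.5% to 50.3% of the pro-B cells of a library, and were set against members with 0, as a description with no test. Rag1 was at a median of 57.2 against 320.5 CPM in cycling and non-cycling cells, Arpp21 at 206 against 1193 CPM, Vpreb3 at 49.2 against 215 CPM and Lig4 at 75 against 258 CPM. Each of these was lower in the cycling cells of 8 of 8 libraries. The same held for Lef1 (958 against 2475 CPM), Il7r (175 against 409.7 CPM), Vpreb1a (67 against 158 CPM), Erg (161 against 388 CPM) and Satb1 (303 against 955 CPM). The genes of the rule were lower in the same cells, with Ebf1 at 4318 against 10670 CPM, Dntt at 211 against 671 CPM and Igll1 at 825 against 1329 CPM, and a cell with 0 UMIs of Mki67 and Top2a is not shown to be at rest.

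Cycling cells were higher in 8 of 8 libraries for the D-type cyclin Ccnd3 (304 against 111 CPM), the histone variant H2ax (213 against 22.9 CPM) and the end-joining gene Xrcc6 (26 against 5.99 CPM). They were also higher for the progenitor genes Spn (57.5 against 39 CPM), Meis1 (12.1 against 3.48 CPM), Cd93 (9.3 against 2.33 CPM) and Cd34 (5.46 against 0.255 CPM). The same held for Tal1 (4.81 against 1.1 CPM) and Gata2 (3.92 against 0.907 CPM). Other progenitor genes ran the other way, with Adgrg1 (148 against 309 CPM) and Notch1 (52.3 against 66.9 CPM) lower in the cycling cells of 8 of 8 libraries. Cycling cells were deeper, with medians of 15957 to 22411 UMIs per library against 6281 to 8673.5, and a shallow cell needs relatively more of the rule's genes to be a member. Levels in non-cycling cells may thus be raised for genes that follow Ebf1, Dntt or Igll1. The part of depth, and of the doublets that were kept, in these differences was not tested.

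Shock waves were compared over all 4 TOE and 4 TO libraries, in a fit with arm, day and hour. In it TO 2d 0h and TOE 2d 24h have no partner of the same hour. Of 13586 genes tested in pro-B cells 0.0% were called for TOE against TO and 0.0% for day 4 against day 2 by edgeR, with 960 and 427 genes at an unadjusted p under 0.05. DESeq2 called 6 (Retn, Ifi27, Hbb-b1, Hbb-b2, and the histone genes H1f5 and H2ac23) and 1 (Tex22), which are named here after their values were seen. In an edgeR fit of the 3 TO and TOE pairs of the same day and hour, 1 gene was called, Hp (haptoglobin, a protein that binds haemoglobin), at 2.04 ± 0.18 (adjusted p = 0.0293). It was at 7.45, 19.1, 39.4 and 26.6 CPM in TO (2d 0h, 2d 4h, 4d 4h, 4d 24h) and 82.4, 6.83, 184 and 111 CPM in TOE (2d 4h, 2d 24h, 4d 4h, 4d 24h), so that TOE lay above TO in each pair while the arms overlapped. Over all 8 libraries Hp differed by 1.77 ± 0.41 (adjusted p = 0.683), and it was called without TOE 2d 24h (adjusted p = 0.0412). The part of other cells in the differences of Hp and of the genes that DESeq2 called was not tested. The smallest adjusted p by edgeR over all 8 libraries was 0.683 for shock waves and 0.997 for day. Groups did not overlap for 2.77% of genes in TOE against TO and 1.44% in day 4 against day 2.

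No gene that marks the stage passed the test between the arms. Lef1 was at 1045, 1512, 1486 and 1004 CPM in TO (in the order 2d 0h, 2d 4h, 4d 4h, 4d 24h) and 1757, 997, 1386 and 1511 CPM in TOE (2d 4h, 2d 24h, 4d 4h, 4d 24h), with a log2 fold change of 0.10 ± 0.15 (adjusted p = 0.849). Il7r was at 241, 265, 251 and 181 CPM in TO and 256, 226, 230.4 and 334 CPM in TOE (0.09 ± 0.17 (adjusted p = 0.895)). Vpreb1a differed by -0.32 ± 0.16 (adjusted p = 0.683), and all 3 genes overlapped between the arms. The cytokine receptor Flt3 was at 20.6, 17.6, 12.6 and 26.8 CPM in TO and 27.6, 51.2, 26.4 and 46.4 CPM in TOE, with a log2 fold change of 0.87 ± 0.18 (adjusted p = 0.683). Of the TO libraries, 4d 24h alone reached the range of TOE.

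By edgeR none of the lists had a gene called for shock waves. In the list of immediate-early genes, which stimuli and tissue dissociation both raise, 27 of 29 were below 0 in TOE against TO (median -0.26, against 0.00 for all genes tested), but 15 of 29 without TOE 4d 24h (median -0.01). Their sum was 5836 to 6985 CPM in TO, and 3702, 9237, 5855 and 2849 CPM in TOE (2d 4h, 2d 24h, 4d 4h, 4d 24h), so that a TOE library was the highest and TOE 4d 24h the lowest. For day 4 against day 2, 28 of these 29 genes were below 0, but 11 without TOE 4d 24h. For heat shock genes 14 of 15 were above 0 on day 4 (median 0.55, and 0.64 without that library). All 89 ribosomal protein genes (median -0.18, and 86 of 89 without TOE 4d 24h) and all 15 mitochondrially encoded genes (median -0.40), lists chosen after the data were seen, were below 0 in TOE. All 11 erythroid markers were below 0 as well (median -1.16), and their sum in pro-B cells was 1548 to 3915 CPM in TO and 455.5 to 2726 CPM in TOE. All 20 tested genes of the replication-dependent histone list, which does not hold linker histone genes such as H1f5, were below 0 (median -0.28, and -0.40 without TOE 4d 24h). Of the mesenchymal and endothelial markers 8 of 9 were above 0 (median 0.71, and 1.35 without TOE 4d 24h), with a sum of 162.8 to 2060.0 CPM in TO and 431.7 to 1810.0 CPM in TOE. Of the neutrophil markers 9 of 11 were above 0 (median 0.45), but 7 of 11 without TOE 4d 24h (median 0.15), with a sum of 3158 to 11790.0 CPM in TO and 7761 to 13530.0 CPM in TOE. The part of other cells in the differences by arm was not tested. Genes of a list move together within a library, so such counts describe these libraries. Genes of mechanical and ATP signalling to p38 had 5 above and 5 below 0 of 10 (median -0.07), with Mapk14 (p38 alpha) at 0.17 ± 0.15 (adjusted p = 0.759). The vesicle marker list had 5 above and 2 below 0 of 7 (median 0.17).

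**Figure D5:**
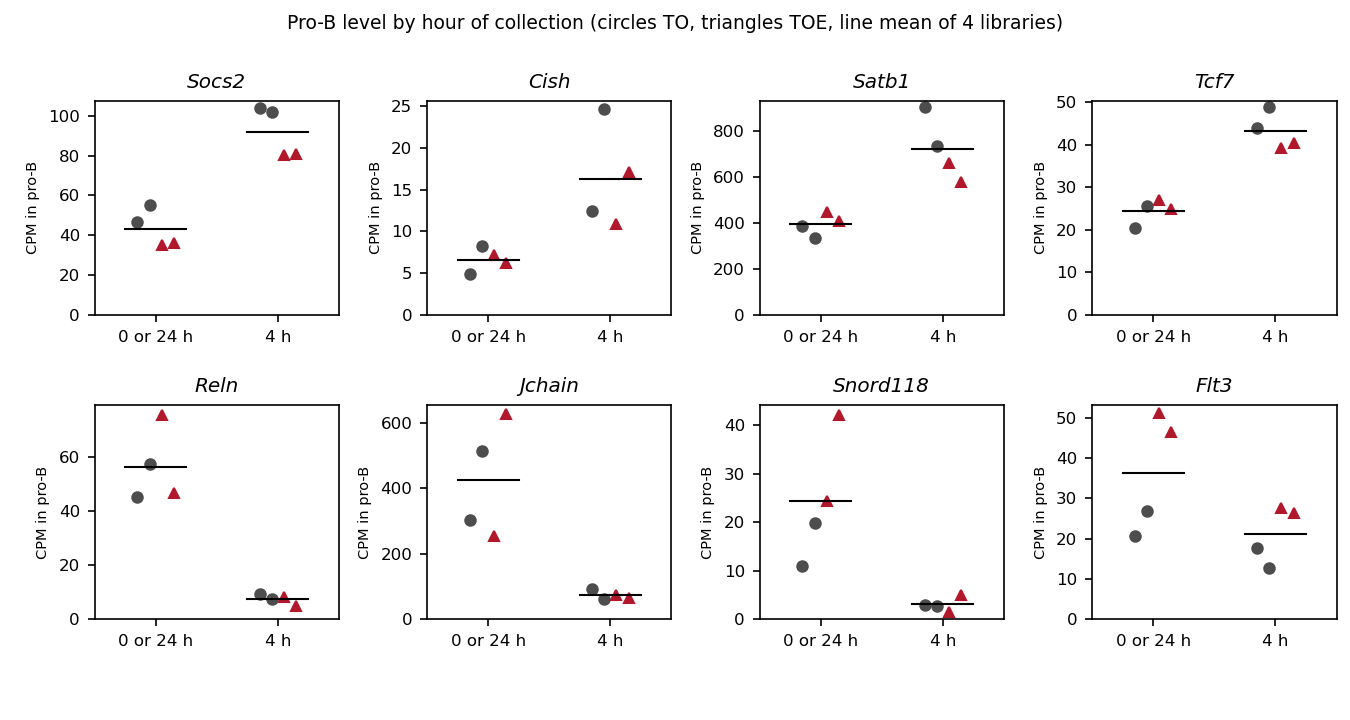
CPM in pro-B cells of the 8 libraries for 8 genes, grouped as 0 or 24 h and 4 h (circles TO, triangles TOE, lines means of 4 libraries), each panel on its own linear axis from 0. Socs2, Cish, Satb1 and Tcf7 are higher in all 4 libraries of 4 h, Reln, Jchain and Snord118 are lower in all 4, and Flt3 overlaps.

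By edgeR over all 8 libraries the hour of collection was the one factor with called genes. Of 13586 genes, 5.53% were called (357 higher, 2.63%, and 394 lower, 2.9%, at 4 h than at 0 or 24 h). The groups did not overlap for 17.5% of genes. The count rested on the libraries: it was 99 without TO 2d 0h or without TO 4d 4h, 117 without TO 4d 24h, 134 without TO 2d 4h, 287 without TOE 2d 4h, 382 without TOE 2d 24h, 463 without TOE 4d 4h and 1917 without TOE 4d 24h, the library that stood apart. The contrast covers TO and TOE libraries alike, and time of day, time since a session and handling cannot be told apart in it.

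The genes Socs2, Cish and Ccnd3 of the IL-7 list were called higher at 4 h. Socs2 was at 104, 102, 80.3 and 80.6 CPM in the 4 h libraries (TO 2d, TO 4d, TOE 2d, TOE 4d) and 46.6, 55.2, 35.3 and 35.9 CPM in the others (TO 2d 0h, TO 4d 24h, TOE 2d 24h, TOE 4d 24h). The groups did not overlap, with a log2 fold change of 1.04 ± 0.12 (adjusted p = 0.00737), and the call held without each library in turn. Cish was at 12.4, 24.6, 10.8 and 17.1 CPM and 4.88, 8.25, 7.21 and 6.17 CPM (1.22 ± 0.24 (adjusted p = 0.0322)), and the D-type cyclin Ccnd3 rose by 0.68 ± 0.15 (adjusted p = 0.0388). These 3 of 16 genes of the IL-7 list were called higher and 0 lower (median 0.10). Il7r itself was at -0.00 ± 0.17 (adjusted p = 0.993). The call of Cish was lost when any of TO 2d 0h, TO 2d 4h, TO 4d 4h, TO 4d 24h, TOE 2d 4h or TOE 4d 4h was left out, with an adjusted p of up to 0.144 and a log2 fold change of 1.06 to 1.44.

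Satb1 was at 902, 736, 661 and 579 CPM at 4 h and 389, 335, 448 and 407 CPM otherwise (0.81 ± 0.15 (adjusted p = 0.0277)). Tcf7 was at 44, 48.9, 39.1 and 40.4 CPM and 20.5, 25.7, 27 and 24.9 CPM (0.77 ± 0.15 (adjusted p = 0.0314)). Neither gene overlapped between the groups, and they were the 2 of 14 early lymphoid genes called, with 0 lower (median 0.27). Both calls were lost without TO 2d 0h, TO 2d 4h, TO 4d 4h or TO 4d 24h, that of Tcf7 also without TOE 2d 4h, while the log2 fold changes stayed at 0.69 to 0.90 and 0.64 to 0.88. No gene of V(D)J recombination (of 16), of the B lineage factors (of 22), of the clock (of 14), of the immediate-early list (of 29) or of the S phase list (of 31) was called. Without TOE 4d 24h 1 gene was called higher and 1 lower for V(D)J recombination, 3 and 1 for the B lineage factors, 1 and 3 for the clock, 0 and 5 for the immediate-early list and 0 and 2 for the S phase list. In the same fit 5 early lymphoid genes were higher and 1 lower (median -0.03).

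Reln, an extracellular glycoprotein known from the brain, was among the genes furthest below at 4 h. It was at 9.22, 7.5, 8.09 and 4.99 CPM at 4 h and 45.2, 57.4, 75.9 and 46.9 CPM at 0 or 24 h, so every 4 h library lay far below every other (-2.97 ± 0.24 (adjusted p = 0.00219)). Jchain, which joins the chains of secreted IgM and IgA, was at 91.3, 61.5, 73.9 and 64.7 CPM and 302, 514, 253 and 626 CPM (-2.51 ± 0.30 (adjusted p = 0.00754)). Both calls held without each library. Cd72 was at 53.8, 61.5, 75.8 and 85.3 CPM and 152, 117, 176 and 106 CPM (-1.04 ± 0.18 (adjusted p = 0.0234)), the 1 gene called of 15 in the surrogate light chain and receptor list, and its call was lost in 6 of the 8 fits that left out a library. Flt3 was lower by -0.81 ± 0.18 (adjusted p = 0.0409), but under the stricter rule of 2 UMIs each of Dntt and Igll1 its log2 fold change was 0.07, and its call was lost in 7 of the 8 fits that left out a library (adjusted p up to 0.148).

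Many small non-coding RNAs and replication-dependent histone genes were lower at 4 h. Snord118 was at 3, 2.79, 1.53 and 4.99 CPM and 11, 19.8, 24.3 and 42.1 CPM (-2.99 ± 0.34 (adjusted p = 0.007)), and Snord13 was lower by -3.24 ± 0.36 (adjusted p = 0.00627). In lists chosen after the data were seen, 13 of 26 small nuclear and nucleolar RNAs were called lower and 0 higher (median -2.51), 17 of 20 replication-dependent histone genes lower and 0 higher (median -1.38), and 5 of 15 mitochondrially encoded genes lower and 0 higher (median -0.80). The histone list did not hold linker histone genes such as H1f1 and H1f5. Replication-dependent histone mRNAs and many small RNAs carry no poly(A) tail, per textbook knowledge, and per the labels the libraries were made from poly(A) RNA. Of 89 ribosomal protein genes 16 were called higher and 22 lower (median -0.17). Without TOE 4d 24h the counts called lower were 10 of 21 for small RNAs, 17 of 20 for histones and 10 of 15 for mitochondrially encoded genes. RNA quality was not analysed here, and its part in these differences was not tested.

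Among genes of at least 20 CPM, the furthest below at 4 h were the serine protease genes Prss29 and Prss34, the latter also in the list of dendritic and mast cells. They were lower by -7.87 ± 0.99 and -6.09 ± 1.02: Prss29 was at 0, 0.428, 0 and 0.238 CPM at 4 h and 119, 12.8, 12.2 and 20.9 CPM otherwise, with most of it in TO 2d 0h. The haemoglobin genes Hbb-b2 and Hbb-b1 (2.47 ± 0.37 and 2.21 ± 0.33), Hmgb2l1 (2.39 ± 0.53) and Chsy3 (1.70 ± 0.38) were higher, as was Hba-a3 of the erythroid list (3.88 ± 0.49). Of the 8 fits that left out a library, Prss29 stayed called in 8, Hba-a3 in 7, Hbb-b1 in 6, Hbb-b2 and Prss34 in 5, and Hmgb2l1 and Chsy3 in 2 (adjusted p up to 0.163 and 0.184). Single genes of other lists were called as well: higher were the heat shock gene Hsph1 (0.92 ± 0.20 (adjusted p = 0.0385)), the interferon gene Ifit2 (0.84 ± 0.18 (adjusted p = 0.0385)) and the p38 gene Mapk14 (0.66 ± 0.16 (adjusted p = 0.0481)), and lower were the small heat shock gene Hspb1 (-3.50 ± 0.80 (adjusted p = 0.0443)) and the selectin ligand Selplg (-0.71 ± 0.16 (adjusted p = 0.0389)). Of these 5, none stayed called without each library in turn.

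Genes of other cells also moved with the hour. Of 11 erythroid markers 5 were called higher at 4 h and 0 lower (median 1.60), 6 without TOE 4d 24h (median 1.28), their sum in pro-B cells was 1641 to 3915 CPM at 4 h and 455.5 to 1673 CPM otherwise, and none of the 11 was at 0. Haemoglobin genes of pro-B cells were 192 CPM in TOE 4d 24h and 949 to 3711 CPM in the other libraries, and the 5 richest cells held 19.8% to 93.3% of these UMIs. Of 11 neutrophil markers, the granule genes Prtn3 (1.94 ± 0.36 (adjusted p = 0.0282)) and Elane (1.69 ± 0.29 (adjusted p = 0.023)) were called higher, in 3 and 4 of the 8 fits that left out a library, and none lower (median 0.34; 4 of 11 higher and median 0.83 without TOE 4d 24h), with a summed level of 7656 to 11790.0 CPM at 4 h and 3158 to 13530.0 CPM otherwise. In cells of 5000 to 20000 UMIs their log2 fold changes were -1.40 and -1.43. Of 4 tested genes of dendritic and mast cells, a list that also holds Flt3, 3 were called lower (median -1.69), with a sum of 20.6 to 31.8 CPM at 4 h and 40.2 to 113.5 CPM otherwise. Of the other markers tested, 0 of 8 of monocytes, 1 higher and 1 lower of 6 of T and NK cells, 1 lower of 6 of plasma cells (Jchain) and 1 higher of 9 of mesenchymal and endothelial cells were called. Of these last 9 markers, 7 were below 0 (median -1.69). Without TOE 4d 24h, 1 of them was called higher and 2 lower (median -1.44). Mesenchymal and endothelial markers summed to 162.8 to 1592 CPM at 4 h and 1191 to 2060 CPM otherwise. The part of other cells in the hour differences was not tested.

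The hour effect was compared with that in small pre-B cells, in a fit of both stages with the library as a block. Small pre-B cells had 1446 of 14721 genes called for the hour (9.82%), and 457 genes were called in both stages with the same sign, 180 higher and 277 lower. The stages come from the same libraries, so these counts are not independent. The difference between the stages was called for 0.171% of 15789 genes, 5 with a higher and 22 with a lower change in pro-B cells. Reln had the smallest adjusted p: its drop at 4 h was larger in pro-B than in small pre-B cells by -1.99 ± 0.19 (adjusted p = 0.0142) on the log2 scale. The linker histone genes H1f1 (1.36 ± 0.15 (adjusted p = 0.0266)) and H1f4 (1.32 ± 0.20 (adjusted p = 0.0489)) were among the 5, and the RNA decay factor Zfp36l2 (-1.13 ± 0.16 (adjusted p = 0.0431)) and the laminin receptor chain Itga6 (-1.03 ± 0.15 (adjusted p = 0.0431)) among the 22. In pro-B cells by themselves the changes of H1f1 and Zfp36l2 at 4 h were 0.16 ± 0.18 (adjusted p = 0.608) and 0.15 ± 0.21 (adjusted p = 0.702). The count was 0 without TO 4d 4h, TO 4d 24h or TOE 4d 4h, 1 without TO 2d 0h (Reln), 2 without TO 2d 4h (Reln and H4f3) and 149 without TOE 4d 24h. The effect of shock waves did not differ between the stages for any gene by edgeR (0.0%, with 661 genes at an unadjusted p under 0.05).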

How the data were processed

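Single cells of the tibial osteotomy site were profiled on a droplet platform, and 8 of the 9 libraries were analysed. The authors deposited counts of UMIs per gene and barcode, not normalized, made per the submitters' processing notes with Cell Ranger 9.0.0. The notes name mRatBN7.2 and GRCh38 as builds. The files list 41801 genes, of which 36414 symbols were found in the RefSeq table (GRCr8), which was used for names, promoter windows and the order of genes. The members and gene lists were chosen with earlier results of these data known.

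Barcodes were dropped below 200 genes or above 20% mitochondrial UMIs, which removed 2479. Doublets were scored with Scrublet in scanpy 1.11.5 and kept. UMIs were summed per library and stage and tested with edgeR 4.0.16 (TMM, filterByExpr, quasi-likelihood test, Benjamini-Hochberg adjustment) in R 4.3.3, with additive terms for arm, day and hour or with the library as a block. Alternatives were DESeq2 1.42.0, upper-quartile scaling, no filter on low counts, other rules, filters and depths, and leaving out each library. Levels are CPM of the summed UMIs. Log2 fold changes are given ± SE, which for edgeR is the absolute log2 fold change divided by the square root of the F statistic. Shares carry exact Clopper-Pearson intervals at 95%, which cover counting error only, and were compared by exact permutation over libraries. The scripts were tested on simulated counts. Libraries are not stated to be separate animals beyond 1 per condition, so p-values measure the spread between libraries.

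Named genes were the 6 markers, the 10 largest called rises and falls of each comparison with at least 50 CPM (stages, same direction in 8 of 8 libraries) or 20 CPM (arm, day and hour), and up to 2 called genes in each direction of each list. Other genes of the lists, and the neighbours of long non-coding RNAs, were named for their role after their values were seen. Tables were handled with pandas 2.3.3 under python 3.11.15, exact tests ran in scipy 1.17.1, and plots were drawn with matplotlib 3.10.9.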

Additional observations from a re-analysis of the deposited data

Results flagged for a closer look

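Among 108 groups of 4 libraries checked for a single value far from the others, 8 were flagged, and chance flags about 1 in 20 such groups. The pro-B share of TO 2d 0h, 3.91%, stood apart from the other TO libraries. TOE 4d 24h stood apart among the libraries of 0 or 24 h in 3 genes of pro-B cells: Hmgb2l1 at 89.0 CPM, Chsy3 at 38.9 CPM and Mcl1 at 124 CPM. TO 2d 0h stood apart in the same group for Prss29 at 119 CPM and Prss34 at 65.1 CPM. Among the libraries of 4 h, Mki67 was at 453 CPM in TOE 4d 4h and Hba-a3 at 31.9 CPM in TO 2d 4h.

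The change with the hour differed between pro-B and small pre-B cells, by the test of the difference itself, in 27 genes. They included Reln, with a log2 difference of -1.99, and Zfp36l2, with -1.13.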

How the results depend on the processing

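In a fit of the 3 TO and TOE pairs of the same day and hour, 1 gene (Hp) was called for TOE against TO. DESeq2 called 6, 1 and 1213 genes for shock waves, day and hour, and without a filter on low counts edgeR called 1 gene for shock waves and 2 for day. Leaving out each library gave 0 to 1 genes for shock waves, 99 to 1917 for the hour and 0 to 149 for the difference in the hour effect from small pre-B cells, which was also 110 without a filter and 14 in cells of 5000 to 20000 UMIs. Against large pre-B cells 2981 genes were called under the stricter rule and 2508 in cells of 5000 to 20000 UMIs.

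Over all libraries the pro-B share was 1.87% under the stricter rule, 2.79% with a stricter cell filter, 2.55% without doublets, 4.46% in cells of 5000 to 20000 UMIs, 4.05% of cells with Cd79a and 2.00% with cells thinned to 3000 UMIs. The ratio of TOE to TO was 1.29 at 2d 4h among cells with Cd79a and 1.08 at 4d 4h in cells of 5000 to 20000 UMIs. Leaving out a library moved the ratio of TOE to TO from 0.710 to 1.00, that of day 4 to day 2 from 0.645 to 0.909 and that of 4 h to 0 or 24 h from 1.00 to 1.39. Without TOE 2d 24h the exact permutation p for day was 0.0286, the smallest that 35 arrangements allow (adjusted 0.0857). Without thinning Lef1, Il7r and Arpp21 had a UMI in 94.5%, 80.3% and 80.7% of pro-B cells.

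Single genes changed direction 9 times: for the hour, Flt3 (0.0699) under the stricter rule and Prtn3 (-1.40), Elane (-1.43) and Nkg7 (-0.91) in cells of 5000 to 20000 UMIs; against small pre-B cells, Car1 (-0.0536) and Ahsp (-0.0358) in those cells; against mature B cells, Prtn3 (-0.89) and Car1 (-0.56) under the stricter rule and Car1 (-0.68) in those cells. Only genes called in either of the settings compared were counted here, and the causes were not tested. Of the other values for single genes and lists 8151 kept their call or a similar count of called genes, 240 lost and 21 gained a call, and 462 moved. The comparisons rest on 4 libraries a side with 215 to 708 pro-B cells each and no repeat of a condition, and the smallest change that could be called was not tested.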
